A study of Homo sapiens with 8 samples.

Results

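PCNA is the ring-shaped sliding clamp that encircles DNA and tethers polymerases and other enzymes to the replication fork. MCM2 to MCM7 are the subunits of the hexameric helicase that is loaded at replication origins and unwinds the DNA. The peaks described here are the rows of a table of Ago2 binding whose gene symbol is PCNA or one of MCM2 to MCM7. They came to 28 of 22506 peaks, in 6 of 6326 genes. PCNA had 6 peaks, MCM3 5, MCM4 4, MCM5 1, MCM6 7 and MCM7 5, and MCM2 had 0 rows. PCNA was picked because its CLIP reads differed between the treatments in these libraries, and the MCM genes were joined to it with those results known. The CLIP differences below are therefore given as descriptions, with no test on any of these genes.

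The cells were 293S, a line descended from HEK293 cells of human embryonic kidney, grown as an adherent layer in serum. The control culture was untreated, and the other culture received 20 µg/mL emetine, a plant alkaloid that stops ribosomes from moving along mRNA, for 60 minutes. Each treatment had 1 culture, from which 1 aliquot went to RNA-seq and 3 went to crosslinking and immunoprecipitation (CLIP) of Ago2 with antibodies from Abnova, Santa Cruz and Sigma. The series asked how contacts between Ago2 and mRNA are remodelled under stress. The spread given below is that between antibodies and aliquots, and not between cultures.

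The deposited values pool libraries, and whole reads of each library could be worked back for 22502 peaks, including all 28 described here. The CLIP libraries held 39813 to 117685 reads in listed peaks. In genes with listed peaks, the RNA libraries held 3770598 reads with emetine and 1562169 in the control. Libraries are numbered 1 to 3 within a treatment by falling value of 1 read, and their antibodies were not assigned. After normalisation 1 read counted as 8.86, 3.00 and 2.81 in the emetine libraries, and as 8.0, 2.82 and 2.43 in the controls, so a single read weighs most in library 1. A value is reads times this factor, and a CLIP change is the difference of mean log2(value + 1), emetine minus control. A ratio is that of read totals over 3 libraries, scaled by depth, with an exact 95% binomial interval that covers counting error only. Where a treatment had 0 reads, the ratio is a bound against a floor of 3 reads over its 3 libraries. Each of the 22502 peaks held at least 11 CLIP reads in all, so any such bound lies above 1, toward whichever treatment held the reads. Where the reads came from 1 library, it is no lower bound on an effect of the treatment. Of the markers fixed for HEK293-derived lines, 2 of 4 had Ago2 peaks (NEFL and LIN28B), and of those of other cell types 0 of 6 had any.

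Ago2 is the Argonaute protein that carries microRNAs to partly complementary sites, mostly in 3' UTRs, where it lowers translation and mRNA stability. Sites within coding sequence are also bound, and translating ribosomes can displace proteins from them. Transcripts of the clamp and of the helicase are made by E2F factors as cells enter S phase. Loading of the MCM ring needs the origin recognition complex, CDC6 and CDT1. Loading of PCNA needs the RFC complex.

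PCNA and MCM6 held more Ago2 reads with emetine, whereas MCM3, MCM4 and MCM7 held fewer in total, and MCM5 had reads in a single library. PCNA was the member whose emetine libraries all lay above its control libraries when the reads of its peaks were summed. This makes 1 of 6 member genes, against 3.01% of 6322 genes. PCNA was picked for its difference between these libraries, so setting these shares side by side tests nothing. By mean log2 value, 4 of the 6 genes were higher with emetine, against 51.1% of all genes. Across the whole table limma called 0 of 22502 peaks at an adjusted p under 0.05 (0%), members included. Unadjusted, 240 of the 22502 peaks had a limma p under 0.05, and limma-voom gave 0 after and 552 before adjustment. Both unadjusted counts are a smaller share than the 0.05 that well-calibrated p-values give where nothing differs.

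**Figure D1:**
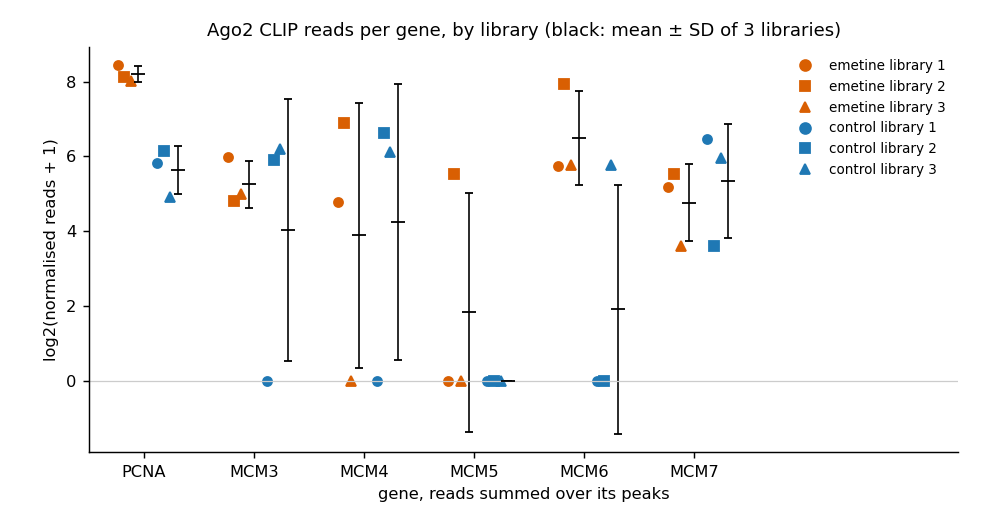
Each point is the log2(value + 1) of a gene's reads, summed over its peaks, in 1 CLIP library, with circles, squares and triangles for libraries 1, 2 and 3 of emetine (orange) and control (blue), and black bars for the mean and SD of 3 libraries. The PCNA emetine points lie together above its control points, while MCM3, MCM4, MCM5 and MCM6 have libraries at 0.

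Summed over its 6 peaks, PCNA held 39, 93 and 92 emetine reads (libraries 1 to 3, the order kept below) and 7, 25 and 12 control reads. The emetine libraries were closely grouped, and the highest control library was well below the lowest of them. The mean log2 value was 8.20 ± 0.22 (SD, n = 3) under emetine and 5.64 ± 0.65 (SD, n = 3) untreated, a change of 2.56. The ratio of totals was 5.66 (95% exact interval 4.08 to 8.0). Leaving out any 1 library kept the change between 2.20 and 2.82. The transcripts listed for PCNA were NM_002592 and NM_182649, on the minus strand of chromosome 20 in hg19. GENCODE release 29 names 3 PCNA pseudogenes, and whether reads were shared with them was not tested.

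The PCNA reads were spread unevenly along the transcript. A coding peak at 5095933 to 5095971 held 163 of the 224 emetine reads (72.8%) but only 9 of the 44 control reads (20.5%). Its libraries held 37, 80 and 46 reads against 3, 1 and 5. It was the only 1 of the 28 peaks with reads in all 6 libraries. The peak in the 3' UTR at 5095639 to 5095675 held 1, 10 and 5 reads with emetine and 0 in every control library, which is at least 5.93-fold higher. A second coding peak at 5098160 to 5098199 held 1, 0 and 11 reads against 0, at least 4.44-fold higher, and 11 of its 12 reads came from emetine library 3.

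The 5' UTR of PCNA did not show this pattern. The overlapping peaks at 5100516 to 5100536 and 5100524 to 5100562 share 12 nt and each held 2, 12 and 2 control reads. With emetine the first held 0, 0 and 6 reads and the second 0, 3 and 6. Reads in the shared stretch can count in both. Their ratios were 0.417 (95% exact interval 0.134 to 1.12) and 0.625 (95% exact interval 0.243 to 1.50), and the treatments overlapped in both. The remaining 5' UTR peak at 5100472 to 5100497 held 18 reads, all in emetine library 3, against 3 reads, all in control library 3. Over the 3 peaks the 5' UTR held 33 emetine and 35 control reads, a ratio of 1.05 (95% exact interval 0.631 to 1.74). With only the deeper of the overlapping peaks counted, an alternative chosen after seeing the data, these were 27 and 19, a ratio of 1.58 (95% exact interval 0.846 to 3.0). The coding totals were 175 and 9, and their ratio 21.6 (95% exact interval 11.1 to 48.0). In mean log2 value the coding reads changed by 4.45 and the 5' UTR reads by -1.86. Counting the overlapping peaks once left 218 emetine and 28 control reads on the whole gene, a ratio of 8.65 (95% exact interval 5.82 to 13.3) and a change of 3.08. The main coding peak then held 74.8% of emetine and 32.1% of control reads.

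**Figure D2:**
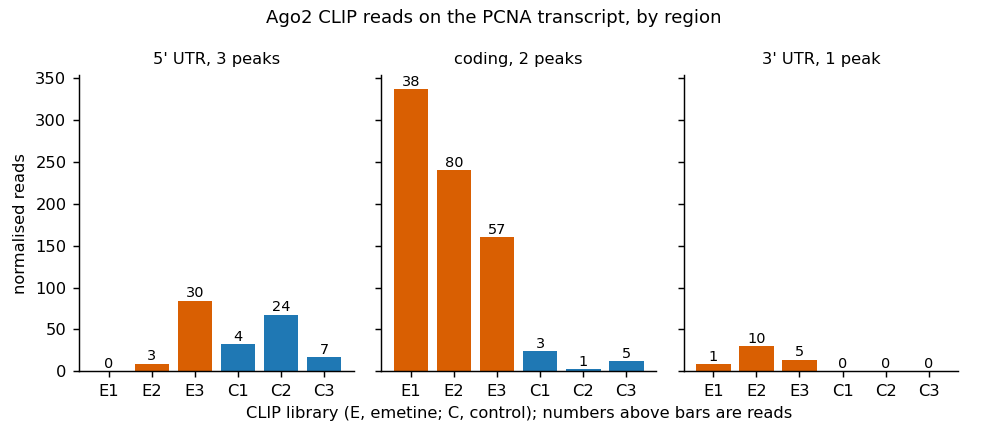
Bars show normalised reads (reads times the value of 1 read) on the PCNA transcript in each CLIP library, by transcript region, with the read number above each bar and E and C for emetine and control. The coding reads are high in all 3 emetine libraries (38, 80 and 57 reads against 3, 1 and 5), while the 5' UTR reads are led by 1 library of each treatment.

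MCM6, a subunit of the MCM4, MCM6 and MCM7 core of the helicase, had reads in every emetine library and in 1 control library. It held 6, 81 and 19 reads with emetine and 0, 0 and 22 in the control. Normalised, control library 3 stood at 53.4, about level with emetine libraries 1 and 3 at 53.2 and 53.3, so the treatments overlapped. Only emetine library 2 was clearly higher, at 243.3. The mean log2 value was 6.49 ± 1.25 (SD, n = 3) under emetine and 1.92 ± 3.33 (SD, n = 3) untreated, a change of 4.56, and the ratio of totals was 5.35 (95% exact interval 3.36 to 8.90). The size of the change depended on the control libraries at 0. It was 3.06 with 5 added before the logarithm, 5.22 with 0.5 added and 2.41 over the peaks with reads in at least 3 libraries. Without control library 3 the change was 6.49, and with any other library left out it was 3.60 to 4.93.

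All 7 MCM6 peaks lay in coding sequence of NM_005915 on chromosome 2, and 6 of them were higher with emetine by mean log2 value. The peak at 136602194 to 136602226 held 0, 30 and 3 reads against 0, 0 and 6, a ratio of 6.11 (95% exact interval 2.53 to 17.8). The peak at 136623734 to 136623785 held 6, 16 and 0 reads against 0, at least 8.15-fold higher. Only 12 nt from it, the peak at 136623701 to 136623722 was the exception, with 0 emetine reads and 14 reads, all in control library 3. These neighbouring MCM6 peaks thus had their reads in opposite treatments.

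The remaining MCM6 peaks were thinner. Those at 136605648 to 136605673 and 136624256 to 136624279 held 15 and 12 reads, all from emetine library 2. The peak at 136605723 to 136605754 held 0, 8 and 5 reads against 1 control read, a ratio of 14.4 (95% exact interval 2.17 to 613.9). The peak at 136630343 to 136630384 held 11 reads in emetine library 3 against 1 control read, a ratio of 12.2 (95% exact interval 1.78 to 526.1). Emetine library 2 supplied 81 of the 106 emetine reads of the gene, yet reads were present in each emetine library.

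MCM4, the subunit with phosphorylated tails that pairs with MCM6, held 3, 39 and 0 reads with emetine and 0, 35 and 28 in the control. Both treatments had a library at 0, and their ranges overlapped entirely. The ratio of totals was 0.741 (95% exact interval 0.489 to 1.11) and the change in mean log2 value -0.36, with SDs of 3.53 and 3.69. This change became 1.59 without emetine library 3, 0.84 without control library 2 and 0.57 without control library 3. It was -0.81, -1.86 and -2.48 without emetine library 1, emetine library 2 and control library 1.

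The MCM4 peaks, all of NM_005914 on chromosome 8, disagreed with each other. The coding peak nearest the 5' end, at 48874935 to 48874960, held 1 emetine read against 0, 35 and 21, a ratio of 0.0198 (95% exact interval 0.000494 to 0.115). It had the lowest deposited ratio of the 28 peaks, -3.47 on the log2 scale relative to RNA in the authors' deposited table. The next coding peak, at 48887392 to 48887440, held 21 reads in emetine library 2 and 0 elsewhere. Of the 3' UTR peaks, the 1 at 48889342 to 48889369 held 16 reads, all in emetine library 2. The other, at 48890458 to 48890489, held 3, 1 and 0 reads against 0, 0 and 7.

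MCM7, the remaining subunit of that core, held 4, 15 and 4 reads with emetine and 11, 4 and 25 in the control. The treatments overlapped, with a change of -0.57 and a ratio of totals of 0.639 (95% exact interval 0.365 to 1.09). Without emetine library 3 the change was 0.01 and without control library 1 it was -0.01. It was -0.27 without control library 3 and -1.44 without control library 2. The 3' UTR peak at 99690502 to 99690536 on chromosome 7 had reads in 4 libraries, 1, 0 and 3 against 0, 4 and 3. The coding peak at 99695826 to 99695849 held 1, 15 and 0 reads against 0, at least 5.93-fold higher. The coding peak at 99694964 to 99694996 held 1 emetine read against 11, all in control library 3. The 5' UTR peak of transcript NM_182776 at 99697908 to 99697956 held 2 reads against 11, all from library 1 of each treatment, and that of NM_005916 at 99698950 to 99698978 held 0 against 11.

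MCM7 is also the host of the miR-106b cluster, whose microRNAs lie inside the span of the gene in RefSeq (GRCh38.p14) and are themselves cargo of Argonaute. The mature sequences are shown for this reason, and whether the precipitated Ago2 carried them was not tested. Capitals mark the seed, bases 2 to 8, and the first pair below shares its seed.
hsa-miR-106b-5p: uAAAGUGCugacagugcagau
hsa-miR-93-5p: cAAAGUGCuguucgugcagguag
hsa-miR-25-3p: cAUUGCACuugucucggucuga
hsa-miR-106b-3p: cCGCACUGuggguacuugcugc
hsa-miR-93-3p: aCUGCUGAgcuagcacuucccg
hsa-miR-25-5p: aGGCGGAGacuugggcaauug

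Matches to the 5p seed of miR-106b and miR-93 (GCACTTT, sense strand) were counted in the 3' UTRs of GENCODE release 29. There was 1 in MCM3 (NM_002388) and 1 in MCM4, and 0 in PCNA, MCM5, MCM6, MCM7 and MCM2. Of 3' UTRs within 20% of the same length, 7.51% held this match at the length of MCM3, 20.1% at that of MCM4 and 3.37% at that of PCNA. The miR-25-3p match (GTGCAAT) was found 1 time in MCM6 and 0 times in the others, with 8.52% of 3' UTRs of the length of MCM6 holding it. MCM6 had 0 peaks in its 3' UTR. These are matches of letters, and the hg19 peaks were not placed on these sequences.

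MCM3 and MCM5 sit on the other side of the ring, where MCM2 and MCM5 form the gate through which DNA enters. MCM3 held 7, 9 and 11 reads with emetine and 0, 21 and 30 in the control. Normalised, these were 62.0, 27.0 and 30.9 against 0, 59.3 and 72.8, so the treatments overlapped. The mean log2 value was higher with emetine by 1.22 while the ratio of totals was 0.588 (95% exact interval 0.355 to 0.956), so the direction depended on the summary. Without control library 1, which had 0 reads, the change was -0.80. It was 2.16 without control library 2 and 2.30 without control library 3.

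The MCM3 peaks lay on chromosome 6, all but the most 5' of them assigned to NM_001270472. The 3' UTR peak at 52129345 to 52129400 was the only 1 with reads in both treatments, 7, 9 and 0 against 0, 9 and 0, a ratio of 1.98 (95% exact interval 0.822 to 5.07). The other 3' UTR peak, at 52129260 to 52129286, held 11 reads in control library 3 alone. The coding peaks at 52147479 to 52147500 and 52149513 to 52149538 held 12 reads in control library 2 and 19 in control library 3, and 0 with emetine. Between them, the coding peak at 52147618 to 52147640 held 11 reads in emetine library 3 alone. The single MCM5 peak, coding, on chromosome 22 from 35809948 to 35809979, held 15 reads, all in emetine library 2. Without that library the MCM5 change was 0.00.

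**Figure D3:**
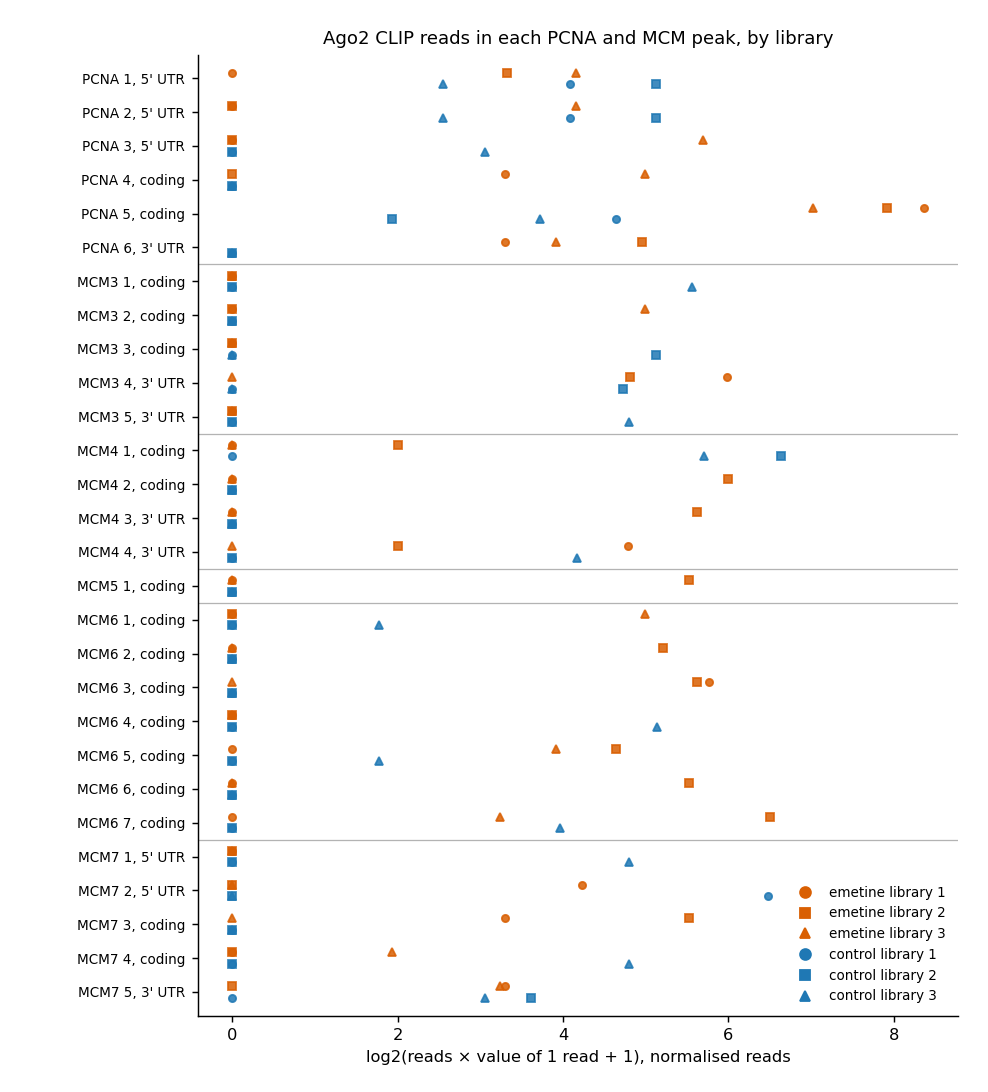
Rows are the 28 peaks, numbered 5' to 3' within each gene, and points give log2(value + 1) in each CLIP library, with symbols and colours for libraries 1 to 3 of emetine (orange) and control (blue). Libraries without reads lie at 0 and cover each other. The fifth PCNA peak, the coding peak with 163 emetine and 9 control reads, has both treatments away from 0 in every library, and 11 of the 22 MCM peaks have a single library away from 0.

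Set against all peaks, the MCM peaks were richer in coding sequence, with 15 of 22 coding (68.2%), while PCNA had 2 of 6 (33.3%). Of the 28 peaks, 17 were coding (60.7%), 6 lay in 3' UTRs (21.4%) and 5 in 5' UTRs (17.9%), while 33.2%, 57.6% and 4.95% of all peaks lay in these regions. Their widths ran from 20 to 55 nt with a median of 31 nt, next to a median of 30 nt for all peaks. By mean log2 value, 17 of the 28 peaks were higher with emetine (60.7%), next to 50.2% of all peaks and 54.6% of all coding peaks. The median change was 1.37 for the members, 0.01 for all peaks and 0.29 for all coding peaks. Among MCM peaks, 10 of 15 coding peaks were higher, with a median of 1.74, and 3 of 7 UTR peaks, with a median of -0.04. Taken from read totals, with a floor of 3 reads, these medians were 2.15 and -0.66. MCM6 alone gave 6 of the 10 higher coding peaks, and most of the 10 drew their reads mainly from emetine library 2. At least 80% of the reads came from 1 library in 11 of the 15 coding and 4 of the 7 UTR peaks. The peaks are therefore not separate evidence for a difference between coding and UTR sites. In 2 of the 28 peaks, both of PCNA, every emetine library was above every control library, next to 2.55% of all peaks. As PCNA was picked for this difference, that share is a description only. In 0 of the 28 was every emetine library below, next to 1.43%.

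Reads per peak were similar, with a median of 14 for MCM peaks and 15 for all peaks, but the MCM reads came from fewer libraries. Coding peaks, which made up 15 of the 22 MCM peaks, also came from fewer libraries in the whole table. In 15 of 22 MCM peaks at least 80% of the reads came from 1 library, and in 17 of all 28. The share was 49.2% of all peaks and 58.9% of all coding peaks. In 11 of 22 MCM peaks every read came from 1 library, next to 26.4% of all peaks and 2564 of the 7474 coding peaks. Of the 28 peaks, 10 had no control read (17.7% of all peaks) and 5 had no emetine read (20.2% of all peaks). Summed over MCM3 to MCM7, emetine library 2 held 159 of 213 emetine reads and control library 3 held 105 of 176 control reads. The sum was 20, 159 and 34 reads against 11, 60 and 105, a change of 0.36 and a ratio of 1.34 (95% exact interval 1.1 to 1.65), and the treatments overlapped. The part of the antibodies in these differences between libraries was not tested.

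RNA was measured in 1 library per treatment, so the RNA ratios have no replicate check. PCNA had 1212 RNA reads after emetine against 410 without it, which is 0.22 on the normalised log2 scale (95% exact interval 0.06 to 0.38). MCM3, at 2092 against 664, had the highest log2 ratio of the 6 genes, 0.31 (95% exact interval 0.18 to 0.44). The intervals of the others included 0, with log2 ratios of 0.02 for MCM4, 0.00 for MCM6, -0.08 for MCM7 and -0.23 for MCM5. In these bulk samples fewer cells making a transcript and less of it per cell cannot be told apart. PCNA, MCM3 and MCM4 make 3 of 6 genes with a log2 ratio above 0, next to 50.9% of the 5811 genes with at least 50 RNA reads. Scaled by total RNA reads in genes with peaks, the ratio of MCM6 was 0.07 and also above 0. The SD of the log2 ratio across those genes was 0.35, so all 6 lay within 1 SD of the median of 0.01. The CLIP change relative to RNA was 2.34 for PCNA, 4.57 for MCM6, 2.07 for MCM5, 0.91 for MCM3, -0.38 for MCM4 and -0.49 for MCM7.

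**Figure D4:**
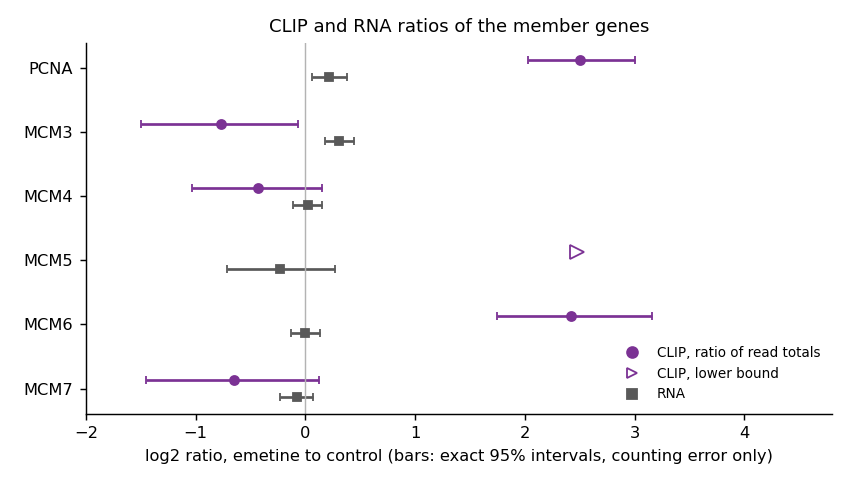
For each gene, purple circles give the log2 ratio of CLIP read totals, emetine to control, and grey squares the log2 ratio of RNA, with exact 95% intervals for counting error. The open triangle, for MCM5, is a bound against the floor of 3 reads. All MCM5 reads came from 1 library, so it is no lower bound on an effect of the treatment. The RNA ratios lie between -0.23 and 0.31, while the CLIP ratios of PCNA and MCM6 lie above 5-fold.

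Per length of transcript, PCNA had the highest RNA level of the 6 genes and MCM5 the lowest. Normalised RNA reads per kb with emetine were 2238 for PCNA (exact Poisson 95% interval 2114 to 2368), 1637 for MCM3 (1567 to 1708) and 1128 for MCM6 (1075 to 1183). MCM7 followed at 1072 (1014 to 1133), MCM4 at 1016 (968 to 1065) and MCM5 at 81.7 (67.4 to 98.0). The intervals of MCM6 and MCM7 overlapped, as did those of MCM7 and MCM4. In the control the values were 1923, 1320, 1131, 1136, 1001 and 95.6 for PCNA, MCM3, MCM6, MCM7, MCM4 and MCM5, so MCM5 stood apart from its partners in both libraries. Its single Ago2 peak came from a gene with 115 and 53 RNA reads.

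The other replication genes were grouped by role in lists chosen with earlier results of these data known. Of 79 genes, 52 had peaks, 143 in all. None of these peaks passed the test in limma, as none did in the whole table. By mean log2 value 78 had more signal under emetine and 65 less, and the median change was 0.27, next to 0.01 for all peaks. Taken from read totals, with the same floor, the median was -0.02, so its sign depended on the summary. Coding sequence held 54.5% of them, next to 60.7% for the clamp and helicase genes.

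Among the genes that load the helicase, 5 of 12 had peaks, with 7 peaks higher and 4 lower. MCMBP, which binds free MCM subunits, held 0, 24 and 6 reads against 0, 0 and 27. ORC2 and ORC6 of the origin recognition complex held 23 against 28 and 12 against 31 reads. Of the genes that activate or accompany the helicase 12 of 13 had peaks, 10 higher and 7 lower. The kinase CDC7 held 0, 28 and 17 reads against 2, 2 and 6, and the treatments overlapped. Its ratio was 5.0 (95% exact interval 2.48 to 11.1), but its change in mean log2 value was 0.41. The CDC7 partner DBF4 held 21 against 10. TIMELESS of the fork protection complex held 47 reads, all in emetine library 2, against 0.

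Clamp loader genes had 6 peaks higher and 4 lower, in 6 of 9 genes. RFC5 and RFC4, small subunits of the PCNA loader, held 23 against 13 and 0 against 17 reads, and CHTF18 of the alternative loader held 21 against 30. Polymerase and primase genes had 6 peaks higher and 5 lower in 5 of 12 genes. POLE3, a histone-fold subunit of polymerase epsilon, held 1, 32 and 31 reads against 0, 13 and 37, a ratio of 1.42 (95% exact interval 0.967 to 2.10). POLD1 and POLE, the catalytic subunits of polymerases delta and epsilon, held 12 against 0 and 6 against 10.

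Genes whose proteins bind or modify PCNA had the most peaks, 34 higher and 22 lower in 13 of 20 genes, with a median of 0.69. From read totals, with the floor of 3 reads, this median was 0.15. CDKN1A alone had 17 of the 56 peaks. CDKN1A, the p21 inhibitor that binds PCNA directly, held 38, 85 and 73 reads against 21, 103 and 53, a ratio of 1.23 (95% exact interval 0.999 to 1.52), and the treatments overlapped. CHAF1A, the large subunit of the chromatin assembly factor, held 49 against 92 reads, and the mismatch repair gene MSH6 44 against 43. USP1, the enzyme that removes ubiquitin from PCNA, was the only gene of all these lists with every emetine library above every control library, next to 3.01% of all genes. Its reads were 7, 16 and 20 against 1, 9 and 17, and the separation appeared after normalisation, at 62.0, 48.1 and 56.1 against 8.0, 25.4 and 41.3. UNG, a uracil glycosylase, was the only 1 with every emetine library below, next to 2.18% of all genes. It held 0, 2 and 1 reads against 1, 36 and 12, which normalised were 0, 6.01 and 2.81 against 8.0, 101.6 and 29.1. Of the 52 genes with peaks, 1 in each direction is no larger a share than among all genes. USP1 and UNG were singled out after their values were seen.

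Single-strand binding and topoisomerase genes had 9 peaks higher and 13 lower, with a median of -1.05. TOP1 held 6, 5 and 2 reads against 5, 55 and 6, a ratio of 0.219 (95% exact interval 0.111 to 0.401), and 55 of its 66 control reads were in control library 2. RPA2 held 57 against 54 and TOP2B 37 against 43. Nucleotide supply genes had 6 peaks higher and 10 lower, with a median of -0.97. TYMS, thymidylate synthase, held 0, 1 and 5 reads against 9, 1 and 29, while RRM1 and RRM2 of ribonucleotide reductase held 74 against 35 and 41 against 67. The medians of both groups thus had the opposite sign to that of PCNA, and the difference was not tested.

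**Figure D5:**
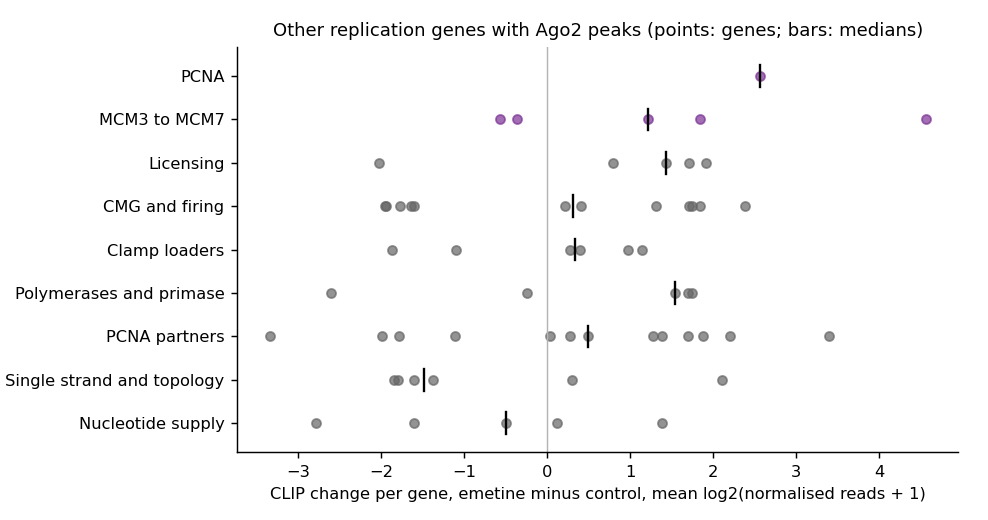
Points are genes, placed by the CLIP change of their summed peaks (mean log2(value + 1), emetine minus control), and black bars are medians over genes. PCNA at 2.56 and MCM6 at 4.56 lie to the right, as does POLH, a PCNA partner, at 3.4. Every row but that of PCNA has genes on both sides of 0.

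The genes whose CLIP profile over the 6 libraries lay nearest to PCNA were LRP8, NAPB, RPS16, ENO1 and C12orf76. The distance is Euclidean, between mean-centred log2(value + 1) profiles, over the 2312 other genes with at least 50 CLIP reads. It was 1.11 for LRP8 and 1.81 for C12orf76, with a median over genes of 5.08. LRP8, a lipoprotein receptor, held 7, 35 and 36 reads against 2, 5 and 2. ENO1, the glycolytic enolase, held 10, 38 and 28 against 7, 13 and 11. Nearest to the sum over MCM3 to MCM7 were MID1IP1, CELSR3, TTPAL, PFN2 and RAB5B, at distances of 0.78 to 0.99. Their changes were 0.14 to 0.51, and MID1IP1 held 9, 34 and 10 reads against 3, 18 and 28.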

How the data were processed

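Ago2 CLIP and RNA-seq libraries of 293S cells were used, 8 in all. Per the file headers, the authors deposited, after normalising the CLIP reads, a log average and a log ratio for each peak; the values fit the natural log, though no header states the base. They were converted to log2. Per the submitters' processing notes, TopHat, DESeq, Bowtie 0.12.8 and the hg19 build were involved, in roles left unnamed. How peaks were called and counted, and the start convention of the coordinates, is not given in the sources used here.

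Per treatment, the average of ln(1 + reads × factor) over the 3 CLIP libraries, less the RNA term, gives the deposited value. Whole reads and factors meeting this were found for 22502 of 22506 peaks, with a largest misfit of 6e-14. With the factors given, the search for reads recovered 1820 of 1820 peaks in each treatment, on data simulated from its own output. Finding the factors from the values was not tested, so this is no check on the reads as a whole. limma 3.58.1 (R 4.3.3) with a trend was fitted to log2(value + 1) of all peaks, treatment alone, with Benjamini-Hochberg adjustment. Tested on simulated data with 22502 peaks, at a dispersion of 0.2, 26 of 100 peaks changed 8-fold and 6 of 100 changed 4-fold were called, with 3 false calls, and at a dispersion of 2, 0 and 0. The changed peaks were drawn from those at or above the median mean value, so these rates do not cover thinner peaks. The dispersions were not fitted to the data. scipy 1.17.1 gave exact intervals.

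Members and lists were chosen with earlier results of these data known. Named were all member peaks, the 3 genes per list with most CLIP reads, and the 5 nearest profiles. CLIP reads were set against the same in untreated cells. Alternatives covered the added constant, scaling, filters, identical or overlapping peaks, read totals and each library left out.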

Additional observations from a re-analysis of the deposited data

How the results depend on the processing

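No paired analysis was possible because the libraries carry no replicate numbers and their antibodies were not assigned. Peaks called stayed at 0 under limma-voom, the filter, the other scaling and each library left out. Counting overlapping peaks once, an alternative chosen after seeing the data, moved the PCNA change from 2.56 to 3.08 and its ratio of totals from 5.66 to 8.65. In the other alternatives gene changes moved by less than the SD between libraries, but that SD was 1.29 to 3.61 for the MCM genes. Signs turned within that SD: as read totals MCM3 was at -0.77 instead of 1.22, and the median of the replication lists at -0.02 instead of 0.27. With each library left out, the changes ran from 2.20 to 2.82 for PCNA, -0.80 to 2.30 for MCM3, -2.48 to 1.59 for MCM4, 0.00 (without emetine library 2) to 2.76 for MCM5, 3.60 to 6.49 for MCM6 and -1.44 to 0.01 for MCM7. The median of the lists ran from -0.03, without emetine library 2, to 0.53, without control library 3. With 5 added before the logarithm the changes of MCM3, MCM5 and MCM6 were 0.54, 1.11 and 3.06, and over peaks with reads in at least 3 libraries those of MCM3, MCM4, MCM6 and MCM7 were 2.02, -1.72, 2.41 and -0.04, with no such peak in MCM5. Scaling RNA by total reads in genes with peaks moved every RNA log2 ratio up by 0.07. A median of 14 reads per MCM peak limits single peaks.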

Other observations

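MIR17HG, the noncoding host of the miR-17 cluster, was looked at after its presence in the table was seen, because microRNAs of that cluster share the seed of miR-106b-5p and miR-93-5p. RefSeq gives hsa-miR-17-5p as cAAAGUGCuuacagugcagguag and hsa-miR-20a-5p as uAAAGUGCuuauagugcagguag, with the seed in capitals. Its 3 Ago2 peaks lay in noncoding exons on chromosome 13. The first, at 92000136 to 92000186, held 1 read with emetine and 10 in control library 1. The second, at 92003841 to 92003890, held 0 against 1, 1 and 11. The third, at 92005943 to 92005967, held 0, 9 and 0 against 1, 1 and 9. Summed, they held 10 emetine and 34 control reads, a ratio of 0.327 (95% exact interval 0.144 to 0.677), with 20 of the control reads in control library 3. By library these were 1, 9 and 0 against 12, 2 and 20, and the treatments overlapped.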
